A study of Mus musculus with 18 samples.

Results

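The TSC22 family was followed here in C2C12 myotubes, the muscle fibre-like cells that form when a mouse myoblast line fuses. The family has 4 genes, Tsc22d1, Tsc22d2, Tsc22d3 and Tsc22d4, and Tsc22d3 encodes GILZ, the glucocorticoid-induced leucine zipper. Its members were all probes that the array's annotation assigns to one of these symbols, which made 4 of 19057 annotated genes and 9 of the 45281 probes on the array, with 2 each for Tsc22d1, Tsc22d2 and Tsc22d4 and 3 for Tsc22d3. The myotubes, in DMEM with 2% horse serum, were treated with 1 uM of the synthetic glucocorticoid dexamethasone (Dex) or with its vehicle, ethanol, at 0.01% of the medium volume. RNA was taken after 6 h, with 4 ethanol and 4 Dex arrays, or after 24 h, with 5 of each, and read on Illumina mouse whole-genome bead arrays. All 18 arrays come from this one cell line. Treatments were made in triplicate according to the design text, but the array labels run to replicate 4 at 6 h and 5 at 24 h. Among the bright probes the deviations from the group means filled 5 of 6 possible directions at 6 h and 5 of 8 at 24 h, so the arrays behind each n may hold fewer independent samples than their number. The sources used here do not say why. The labels also do not say whether replicates were separate cultures, so the p-values rest on a spread between arrays that may be technical only.

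TSC22 family proteins share a conserved TSC box followed by a leucine zipper, through which they pair with themselves and with each other. Most of the genes give rise to long and short proteins from alternative starts. GILZ is a classical target of the receptor that Dex activates, a ligand-bound transcription factor, and is known to bind and restrain NF-kB, AP-1 and the Ras and Raf proteins. In muscle precursors its long form is known to hold back MyoD. Tsc22d1 was first found as a gene stimulated by TGF-beta, and the family also binds the NRBP pseudokinases and works with the WNK kinases of cell volume control.

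The array medians lay between 99.8 and 100.4 intensity units at 6 h and between 85.2 and 86.8 at 24 h, so levels are compared only within a time. Of 10 myotube markers 8 were measured, and with ethanol each read at least 36.7 times the array median. None of the 8 was called at 6 h, and at 24 h 2 rose and 1 fell with Dex. Over all genes, each read by its brightest probe, 4.34% were called higher and 4.23% lower at 24 h. Casq2, a calcium-binding protein of the sarcoplasmic reticulum, rose by 0.48 (SE 0.10, limma adjusted p = 0.00278), called in 29 of 29 alternatives, with a Dex effect higher by 0.63 than at 6 h (limma adjusted p = 0.0404). The calls of Ckm, the muscle creatine kinase gene (0.30, limma adjusted p = 0.0425), and Myog, the myogenin gene (-0.32, limma adjusted p = 0.0380), held in 19 and 21 of 29. That of Ckm was lost without ethanol replicate 3, 4 or 5 or Dex replicate 1, 3, 4 or 5 of 24 h (0.0526 to 0.106), and that of Myog without ethanol or Dex replicate 1, 2 or 3 (0.0561 to 0.0914). None of the adipocyte (4 measured), osteoblast (5) or macrophage (3) markers read above 1.31 times the array median with ethanol. Of 4 myoblast markers, Vcam1 fell with Dex at both times, on 1 of its 4 probes, and Cd34 had 0.44 at 6 h (limma adjusted p = 0.0443), a call that held in 20 of 29 alternatives and was lost without ethanol replicate 2, 3 or 4 or Dex replicate 1, 2 or 3 of 6 h (0.0553 to 0.157), with array weights (0.162) and with each time fitted alone (0.0752). Myf5 and Pax7 were not called and read below the array median with ethanol. At 6 h Myf5 was called higher with Dex in 8 of 28 alternatives (limma adjusted p from 0.0183 to 0.219). The summed level of the 4 was 1334 to 1759 with ethanol and 1048 to 1077 with Dex at 6 h, and 1250 to 1327 against 665.3 to 715 at 24 h. The fall of this sum is that of Vcam1, whose mean was 1235 with ethanol and 586.4 with Dex at 6 h and 957.1 and 383.1 at 24 h. The part of these shifts in the results below was not tested. In RNA from whole cultures, fewer cells of a type and less RNA per cell cannot be told apart.

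Tsc22d3 (GILZ) was higher with Dex at both times on each of its 3 probes, by 2.63 to 4.41 times at 6 h and by 1.64 to 3.11 times at 24 h. One Tsc22d1 probe was lower with Dex at 24 h, at 0.769 times the ethanol level. The other 5 probes, of Tsc22d1, Tsc22d2 and Tsc22d4, passed the test at neither time. A probe was called at a limma adjusted p (Benjamini-Hochberg over all 45281 probes) under 0.05. By this rule 3 of 9 family probes rose and none fell at 6 h, and none of the 9 was lower at an unadjusted p under 0.05 either. Over the whole array 3.04% of probes were called at 6 h, 1.54% higher and 1.5% lower. At 24 h 3 family probes rose and 1 fell, beside 3.18% higher, 3.09% lower and 6.28% in all over the array. The median log2 fold change of the 9 probes was 0.02 at 6 h and -0.0029 at 24 h, beside -0.00036 and -0.0020 over all probes.

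**Figure D1:**
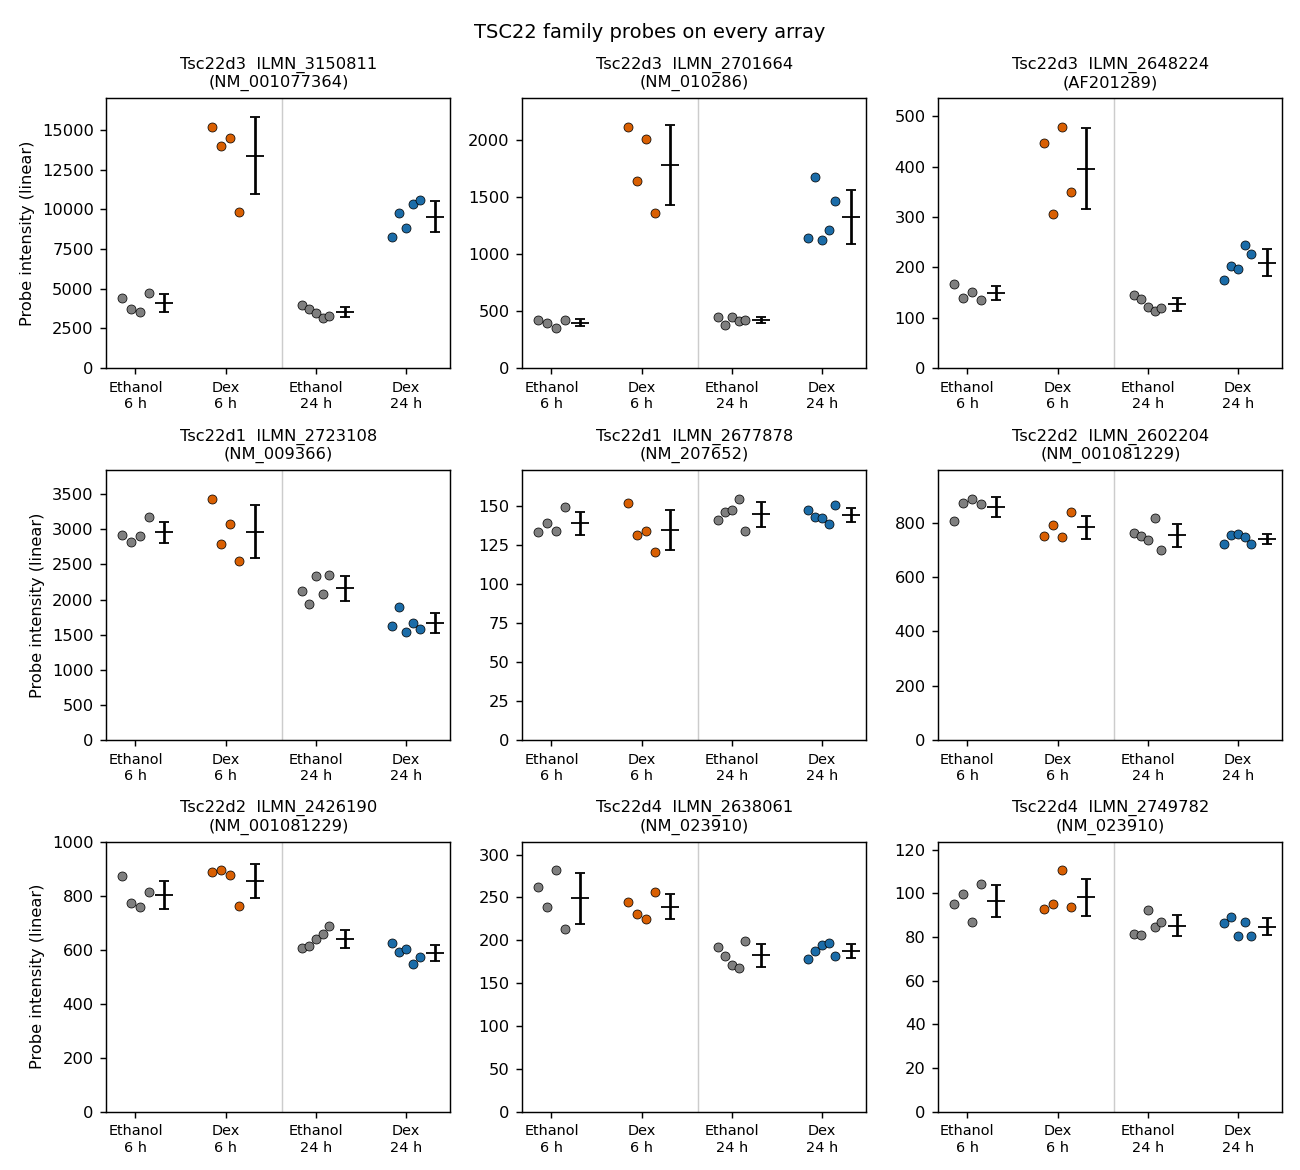
Probe intensity (linear, vertical axes from 0) of each of the 9 TSC22 family probes on every array, by treatment and time (points are arrays, bars are mean ± SD to the right of each group, n = 4 per group at 6 h and 5 at 24 h). On all 3 Tsc22d3 probes every Dex array lies above every ethanol array of its time, and on Tsc22d1 probe ILMN_2723108 every Dex array at 24 h lies below the ethanol arrays.

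The 3 Tsc22d3 probes are listed in the annotation under different transcript records. These are NM_001077364 for probe ILMN_3150811, NM_010286 for ILMN_2701664 and AF201289 for ILMN_2648224, and RefSeq lists the first pair as transcripts of Tsc22d3. Probe sequences were not used here, so a probe may also read other transcripts of the gene, and intensities of different probes are not compared with each other. Transcripts of the gene start at several places. RefSeq (GRCm38.p6) gave 3 start windows for Tsc22d3 and 5 for Tsc22d1. No window was available here for Tsc22d2 or Tsc22d4, so these genes were not searched. The 250 bases before each Tsc22d3 start are shown because this is the gene whose probes rose. The gene lies on the minus strand of chromosome X, and the sequences read 5′ to 3′ along that strand. Capitals mark the glucocorticoid receptor half-site TGTTCT, searched on both strands.
Tsc22d3 window at chrX:140600523-140600772: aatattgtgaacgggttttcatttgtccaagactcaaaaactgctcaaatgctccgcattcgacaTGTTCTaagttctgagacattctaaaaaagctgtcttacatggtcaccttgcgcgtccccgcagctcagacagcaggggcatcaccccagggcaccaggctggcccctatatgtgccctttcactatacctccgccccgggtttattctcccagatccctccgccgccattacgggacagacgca
Tsc22d3 window at chrX:140548572-140548821: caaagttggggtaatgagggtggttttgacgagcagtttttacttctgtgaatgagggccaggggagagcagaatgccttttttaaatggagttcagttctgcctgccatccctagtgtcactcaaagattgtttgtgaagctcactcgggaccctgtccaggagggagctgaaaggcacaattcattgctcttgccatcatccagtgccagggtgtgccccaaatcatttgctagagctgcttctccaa
Tsc22d3 window at chrX:140542669-140542918: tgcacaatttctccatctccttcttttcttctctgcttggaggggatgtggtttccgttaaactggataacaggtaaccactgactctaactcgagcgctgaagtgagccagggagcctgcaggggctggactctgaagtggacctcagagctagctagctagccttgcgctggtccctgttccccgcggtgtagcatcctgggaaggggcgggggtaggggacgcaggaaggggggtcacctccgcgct

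The half-site stood once in the most upstream window, from base -185 to base -180 before the start, and in neither of the other Tsc22d3 windows. It also stood in 1 of the 5 Tsc22d1 windows, on the opposite strand. Over all 32851 RefSeq windows of this length 16.1% held the half-site, so its presence is common. The complete palindrome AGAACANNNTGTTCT, which contains the half-site on each strand, was in none of the 8 family windows and in 0.00913% of all windows. The looser GNACANNNTGTNC was likewise in none of the 8, and in 0.387% of all windows. Sequence farther from the starts was not searched, and which start each probe reads from is not given in the sources used here.

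Probe ILMN_3150811 was the brightest of the Tsc22d3 probes. At 6 h it read 4419, 3731, 3549 and 4716 on the 4 ethanol arrays and 15183, 13983, 14497 and 9843 on the 4 Dex arrays. All Dex arrays were above all ethanol arrays, and the Dex array with replicate number 4 was the lowest of its group. Group means were 4104 ± 554 with ethanol and 13376 ± 2406 with Dex (SD, n = 4 each), giving 1.69 on the log2 scale with SE 0.12 and an adjusted p of 8.60e-10 by limma. At 24 h the probe read 3997, 3718, 3487, 3180 and 3259 with ethanol and 8238, 9742, 8799, 10319 and 10568 with Dex. The groups again did not overlap, and group means were 3528 ± 336 with ethanol and 9533 ± 993 with Dex (SD, n = 5 each), giving 1.43 on the log2 scale with SE 0.11 and an adjusted p of 1.78e-09 by limma.

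Probe ILMN_2701664 had the largest fold change of the family. At 6 h it read 426.1, 395.7, 353.2 and 421 with ethanol and 2114, 1638, 2010 and 1358 with Dex, again with replicate 4 as the lowest Dex array. The change was 2.14 on the log2 scale with SE 0.13 (adjusted p = 4.69e-11 by limma), which placed it at rank 10 of the 45281 probes by size of rise. The other Tsc22d3 probes held ranks 24 and 42. At 24 h it read 451.7, 378.9, 446.9, 411.5 and 418.6 with ethanol and 1142, 1678, 1127, 1210 and 1468 with Dex. The change was 1.64 on the log2 scale with SE 0.12 (adjusted p = 3.54e-10 by limma), and the 3 probes held ranks 34, 45 and 178.

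Probe ILMN_2648224 was the dimmest of the 3, at 1.48 times the array median with ethanol at both times, so any background left in its reading lowers its fold change. It read 166.6, 139.8, 151.5 and 135.6 with ethanol and 446.8, 307.2, 479.3 and 350.4 with Dex at 6 h. The change was 1.40 on the log2 scale with SE 0.12 (adjusted p = 3.36e-08 by limma). At 24 h it read 144.4, 136.8, 122.1, 113.1 and 119.5 with ethanol and 175.4, 202.2, 197.2, 245.5 and 227.4 with Dex. Here too the groups did not overlap, and the change was 0.72 on the log2 scale with SE 0.11 and an adjusted p of 0.000126 by limma.

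Separated groups are more frequent than calls on these arrays. Over all probes, every Dex array lay above every ethanol array for 4.51% at 6 h and 6.99% at 24 h, and below for 4.73% and 6.71%, which makes 9.24% and 13.7% separated in all. In the family 3 of 9 probes were separated at 6 h, all with Dex above, and 4 at 24 h, 3 above and 1 below. A rise called at both times, which the 3 Tsc22d3 probes had, was found for 0.875% of all probes. The Dex array with replicate number 4 at 6 h was the lowest of its group for 42.3% of the 697 probes called higher at 6 h, and the other Dex arrays for 16.1% to 24.5%. Without this array the log2 fold changes at 6 h were 1.84, 2.26 and 1.45 for the 3 Tsc22d3 probes in the order above, so the rise was at least as large without it.

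All 3 Tsc22d3 probes had a smaller log2 fold change at 24 h than at 6 h, but the test of this difference, the interaction of treatment and time, called none of the 9 family probes. At an unadjusted p under 0.05, 3 of the 9 had a lower Dex effect at 24 h than at 6 h and none a higher one. By that looser threshold 5537 of all 45281 probes differed, in either direction. Over the array 0.819% of probes were called, 0.384% with a lower and 0.435% with a higher effect at 24 h. The difference was -0.68 for ILMN_2648224 (95% interval -1.03 to -0.34, limma adjusted p = 0.0514), -0.50 for ILMN_2701664 (-0.86 to -0.15, 0.196) and -0.26 for ILMN_3150811 (-0.60 to 0.08, 0.553). The value of ILMN_2648224 lies at the threshold. It passed in 13 of 26 alternatives, with adjusted p from 0.00821 to 0.102, and 7 of these left out 1 array. At 6 h these were ethanol replicate 1 or Dex replicate 2 or 4, and at 24 h ethanol replicate 3 or 4 or Dex replicate 4 or 5, with adjusted p from 0.0147 to 0.0495. Without Dex replicate 4 at 6 h ILMN_2701664 passed as well (-0.63, limma adjusted p = 0.0463).

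**Figure D2:**
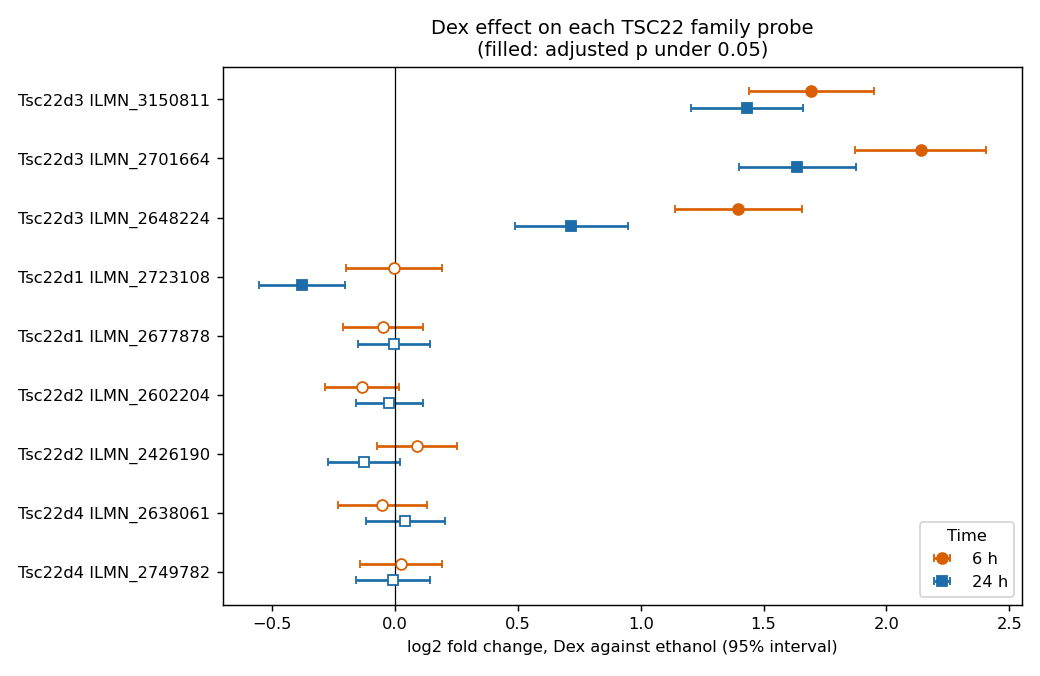
Log2 fold change of Dex against ethanol (horizontal axis) with its 95% interval for each family probe at 6 h (circles) and 24 h (squares), filled where the adjusted p was under 0.05. The Tsc22d3 values run from 1.40 to 2.14 at 6 h and from 0.72 to 1.64 at 24 h, Tsc22d1 probe ILMN_2723108 stands at -0.38 at 24 h, and the other intervals include 0.

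Tsc22d1, the founding member of the family, had 1 bright and 1 dim probe, and only the bright one moved. Probe ILMN_2723108, listed under NM_009366, read 2925, 2825, 2909 and 3173 with ethanol and 3436, 2794, 3081 and 2551 with Dex at 6 h. The Dex arrays lay on both sides of the ethanol arrays, and the log2 fold change was -0.0037 (95% interval -0.20 to 0.19, limma adjusted p = 0.994). At 24 h it read 2117, 1939, 2329, 2072 and 2351 with ethanol and 1625, 1899, 1541, 1670 and 1574 with Dex. Every Dex array was then below every ethanol array. Group means were 2162 ± 176 with ethanol and 1662 ± 142 with Dex (SD, n = 5 each), giving -0.38 on the log2 scale with SE 0.08 and an adjusted p of 0.00588 by limma. Casq2, Ckm and Myog, of the myotube markers, changed at the same time, and their part in this fall was not tested. By size of fall it held rank 538 of the 45281 probes. The difference between the effects at the 2 times was -0.38 (95% interval -0.64 to -0.12, unadjusted p = 0.00658, limma adjusted p = 0.182), so the effect is not shown to differ between the times.

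Tsc22d1 probe ILMN_2677878, listed under NM_207652, read 133.4 to 149.2 with ethanol and 120.8 to 151.8 with Dex at 6 h, and 133.7 to 154.7 against 138.3 to 150.4 at 24 h. The groups overlapped at both times. The log2 fold changes were -0.05 (95% interval -0.21 to 0.11) and -0.0029 (-0.15 to 0.14). With ethanol this probe read 1.39 times the array median at 6 h and 1.68 times at 24 h, so any background left in its reading would mask part of a fall. With the mean of its probes in place of the brightest, Tsc22d1 had -0.19 at 24 h and was not called (limma adjusted p = 0.0893).

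The Tsc22d2 probes, both listed under NM_001081229, read well above the array median and were not called at either time. Probe ILMN_2602204 read 805.6, 873.9, 888.4 and 870.5 with ethanol and 751.7, 792.1, 747 and 839.6 with Dex at 6 h, a log2 fold change of -0.14 (95% interval -0.29 to 0.01, limma adjusted p = 0.453). Probe ILMN_2426190 pointed the other way at 6 h, with 757.2 to 872.9 in ethanol, 761.3 to 894.4 in Dex and a log2 fold change of 0.09 (-0.08 to 0.25). At 24 h the first probe read 698 to 816.1 with ethanol and 721.2 to 758.7 with Dex (-0.02, interval -0.16 to 0.11). The second read 605.9 to 688.1 and 546 to 624.6 (-0.12, interval -0.27 to 0.02). These intervals exclude a change of the size seen for Tsc22d3, and a fold above 1.19 or below 0.820 for Tsc22d2 at 6 h lies outside them.

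Tsc22d4, which has been linked to insulin and lipid handling in liver, read low on both probes, listed under NM_023910. Probe ILMN_2638061 read 213.5 to 281.5 with ethanol and 224.6 to 256.6 with Dex at 6 h, and 167.4 to 199.1 against 178.1 to 196.9 at 24 h. At both times the Dex values lay within the range of the ethanol values, with log2 fold changes of -0.05 (95% interval -0.23 to 0.13) and 0.04 (-0.12 to 0.20). Probe ILMN_2749782 read 96.5 ± 7.40 and 98.2 ± 8.29 (SD, n = 4 each) at 6 h and 85.3 ± 4.82 and 84.8 ± 4.01 (SD, n = 5 each) at 24 h. This is the array median itself, so the probe is not shown to be above background and says little about the gene.

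Over the 4 groups, the order of the levels within a time was Dex above ethanol for Tsc22d3 and, at 24 h, ethanol above Dex for the bright Tsc22d1 probe. For the remaining probes the neighbouring groups differed by less than the test could separate. Tsc22d3 moved with the classical glucocorticoid targets. Of 15 such genes, each read by its brightest probe, 11 rose and none fell at 6 h, and 12 rose and none fell at 24 h. Their median log2 fold change was 1.27 and 1.35, beside 0.0030 and -0.000063 over 19057 genes. By their brightest probes 2.41% of these genes were called higher at 6 h and 4.34% at 24 h. The list was chosen because its members are known to respond, so its direction is no independent evidence. The kinase gene Sgk1 (1.71 at 6 h and 1.54 at 24 h) was close in log2 fold change to the brightest Tsc22d3 probe, while Fkbp5, a co-chaperone of the receptor, rose by 3.93 and 3.40. Of these 15 genes Fkbp5 was the one with a called interaction, with a Dex effect lower by 0.53 at 24 h (limma adjusted p = 0.0247).

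**Figure D3:**
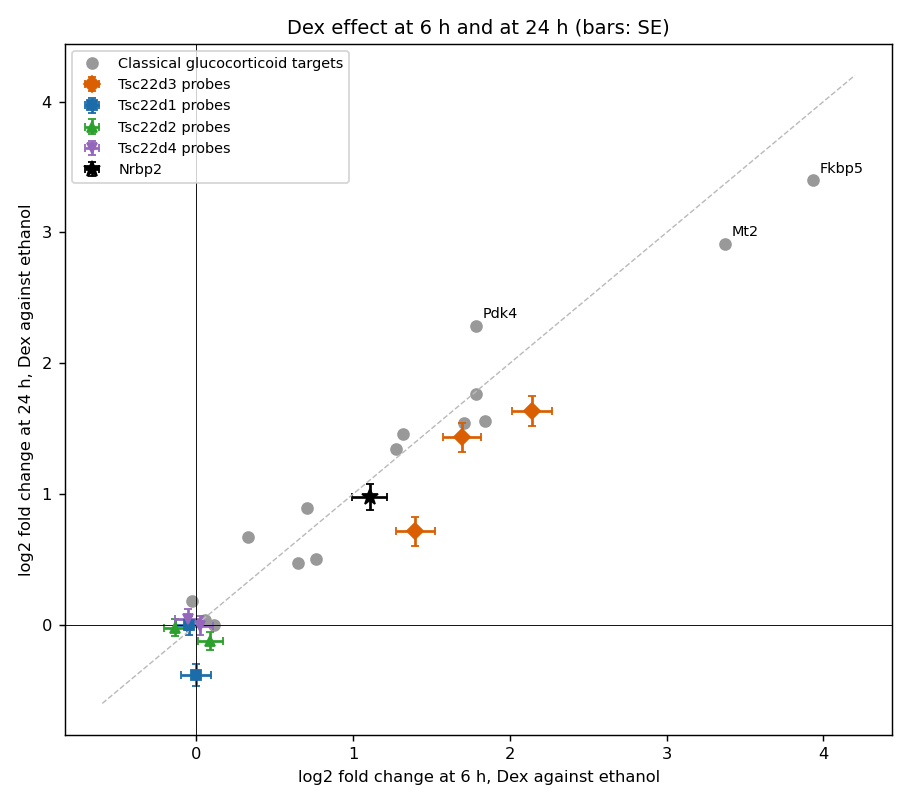
Log2 fold change of Dex against ethanol at 6 h (horizontal axis) and at 24 h (vertical axis) for the family probes and Nrbp2 (coloured or black, bars are SE) and for 15 classical glucocorticoid targets (grey, brightest probe of each gene), with the line of equal effect dashed. All 3 Tsc22d3 probes lie below this line, and the Tsc22d2 and Tsc22d4 probes lie near the origin.

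The genes whose pattern was most like that of Tsc22d3 were ranked by the lower of a pair of Pearson correlations with its brightest probe, over the 8 arrays of 6 h and the 10 arrays of 24 h. The first 5 genes were H6pd, which makes NADPH in the endoplasmic reticulum (lower r 0.988), Ifi207, an interferon-inducible gene (0.983), Vegfd, a vascular growth factor (0.983), the transcription factor gene Klf9 (0.982) and Edn1, the endothelin-1 precursor (0.981). All 5 were called higher at both times, with log2 fold changes at 6 h of 1.00, 1.43, 1.65, 0.71 and 2.58 in this order. The arrays of a time fall into 2 separate groups for such genes, so these correlations mostly restate a shared difference between Dex and ethanol. For the bright Tsc22d1 probe the first 3 were Gin1 (lower r 0.922), the nucleoporin gene Nupl1 (0.896) and the SNARE gene Snap23 (0.883), of which Gin1 was called at 24 h (-0.39).

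Of 8 listed genes of the NRBP and WNK pathway, with which TSC22 proteins work, 7 were measured, and Nrbp2, the pseudokinase gene related to the family's binding partner NRBP1, rose at both times while the other 6 were not called. Nrbp2 read 1051, 1026, 809.6 and 892.1 with ethanol and 2182, 2145, 2036 and 1746 with Dex at 6 h. Every Dex array was above every ethanol array, and the change was 1.10 on the log2 scale with SE 0.11 and an adjusted p of 3.55e-07 by limma. At 24 h it read 831.3, 747.1, 703.8, 599.1 and 804.1 with ethanol and 1276, 1506, 1338, 1403 and 1726 with Dex, giving 0.98 on the log2 scale with SE 0.10 and an adjusted p of 3.16e-07 by limma. It was called in all 29 alternatives at each time. Nrbp1 itself had -0.01 and -0.05, and Oxsr1, a kinase that WNK kinases activate, had 0.12 at 6 h and 0.27 at 24 h (limma adjusted p = 0.0502). The 24 h value of Oxsr1 lies at the threshold. It passed in 17 of 29 alternatives, with adjusted p from 0.0104 to 0.147, and the list then had 2 genes called higher. Of these 17, 11 left out 1 array, which was any of the 8 arrays of 6 h, ethanol replicate 3 or 5 of 24 h or Dex replicate 2 of 24 h. Without both 24 h arrays numbered 1, the list had 1 gene called higher and 1 called lower at 24 h. The median of the 7 genes was 0.12 at 6 h and -0.04 at 24 h. Over all genes 2.41% were higher and 1.93% lower at 6 h, and 4.34% and 4.23% at 24 h.

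Of 19 genes for proteins that GILZ binds or acts on, 11 were measured. Of these 2 rose and none fell at 6 h, while 4 rose and none fell at 24 h. By brightest probe 2.41% of all genes were called higher and 1.93% lower at 6 h, and 4.34% and 4.23% at 24 h. Both at 6 h and at 24 h the list members called higher included Sgk1 and Cebpb, the C/EBP-beta gene. Sgk1 is also on the list of classical glucocorticoid targets, chosen because its members respond. Cebpb rose by 0.77 (SE 0.12) and 0.64 (SE 0.11). At 24 h Foxo3, a FoxO factor (0.32, SE 0.08), and Nedd4l, a ubiquitin ligase for the epithelial sodium channel (0.34, SE 0.09, limma adjusted p = 0.0234), were called as well. The Foxo3 probe read near the array median, at 1.16 times with ethanol at 24 h. The remaining Foxo3 probes, both dimmer, had 0.17 and 0.16 and were not called. The call of Nedd4l was lost without ethanol replicate 2 or 3 or Dex replicate 2 or 3 of 24 h (adjusted p from 0.0549 to 0.0602). Its other probes, both near the array median, had -0.10 and -0.08 and were not called, and the mean of all 3 probes gave 0.05 (limma adjusted p = 0.596). Of the NF-kB and AP-1 genes on this list, Rela, Fos and Jun were measured, and none was called. Nfkbia, an NF-kB inhibitor gene, was read among the classical glucocorticoid targets instead. Its brightest probe was called higher, by 0.76 at 6 h (limma adjusted p = 3.90e-05) and 0.50 at 24 h (0.00104). This was 1 of its 2 probes, and the other was not called higher at either time. Rela, the NF-kB subunit, had 0.01 at 6 h and -0.18 at 24 h, and Fos and Jun, the AP-1 subunits, had 0.21 and -0.04 at 6 h and 0.09 and 0.01 at 24 h. Myod1, the myogenic factor, had -0.25 at 6 h (limma adjusted p = 0.211) and -0.27 at 24 h (0.0582), and the latter passed in 13 of 29 alternatives (adjusted p from 0.00555 to 0.252). Of these 13, 9 left out 1 array, which was any of the 4 ethanol arrays or Dex replicate 1 or 4 of 6 h, or ethanol replicate 3 or 4 or Dex replicate 5 of 24 h (0.0248 to 0.0475). The median of the list was 0.07 at 6 h and 0.09 at 24 h.

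Of 10 genes of the TGF-beta pathway, under whose control Tsc22d1 was first described, 9 were measured. At 6 h the brightest probe of the receptor gene Tgfbr1 rose by 0.34 (SE 0.09, limma adjusted p = 0.0369) and Tgfbr2 had -0.40 (SE 0.09, limma adjusted p = 0.0159). At 24 h Tgfbr1 rose by 0.28 (SE 0.08, limma adjusted p = 0.0374), while Smad3, a transcription factor of the pathway, had -0.43 (SE 0.07, limma adjusted p = 0.000353) and the ligand gene Tgfb2 -0.40 (SE 0.11, limma adjusted p = 0.0237). Both probes of Smad3 were called lower, the dimmer at -0.30. The other 3 probes of Tgfbr1, each much dimmer, had -0.15, 0.02 and -0.10 at 6 h and were not called, and the mean of its probes was 0.03 (limma adjusted p = 0.903). At 24 h 2 of its 4 probes were called higher. The dimmer of these, ILMN_1214505, had a mean of 80.1 over the arrays, below the array medians, and -0.15 at 6 h. It is not shown to be above background. The 6 h call of Tgfbr1 was also lost with normexp (0.0552), with each time fitted alone (0.0919), with array weights (0.0791) and with an intensity trend (0.0680), and its 24 h call with normexp (0.0592) and the trend (0.0612). It was further lost at 6 h without ethanol replicate 2 or Dex replicate 1 or 3 (adjusted p from 0.101 to 0.106), and at 24 h without ethanol replicate 1, 2 or 4 or Dex replicate 1, 3 or 4 (0.0597 to 0.0682). The 6 h call of Tgfbr2 was lost without ethanol replicate 3 (0.0575) and with array weights (0.0507). That of Tgfb2 at 24 h was lost without ethanol replicate 3 or Dex replicate 3 or 4 (0.0555 to 0.0598). In all 1 of the 9 genes was called higher and 1 lower at 6 h, and 1 higher and 2 lower at 24 h. By brightest probe 2.41% of all genes were called higher and 1.93% lower at 6 h, and 4.34% and 4.23% at 24 h. The list median was -0.12 at 6 h and -0.07 at 24 h, beside 0.0030 and -0.000063 over all genes.

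**Figure D4:**
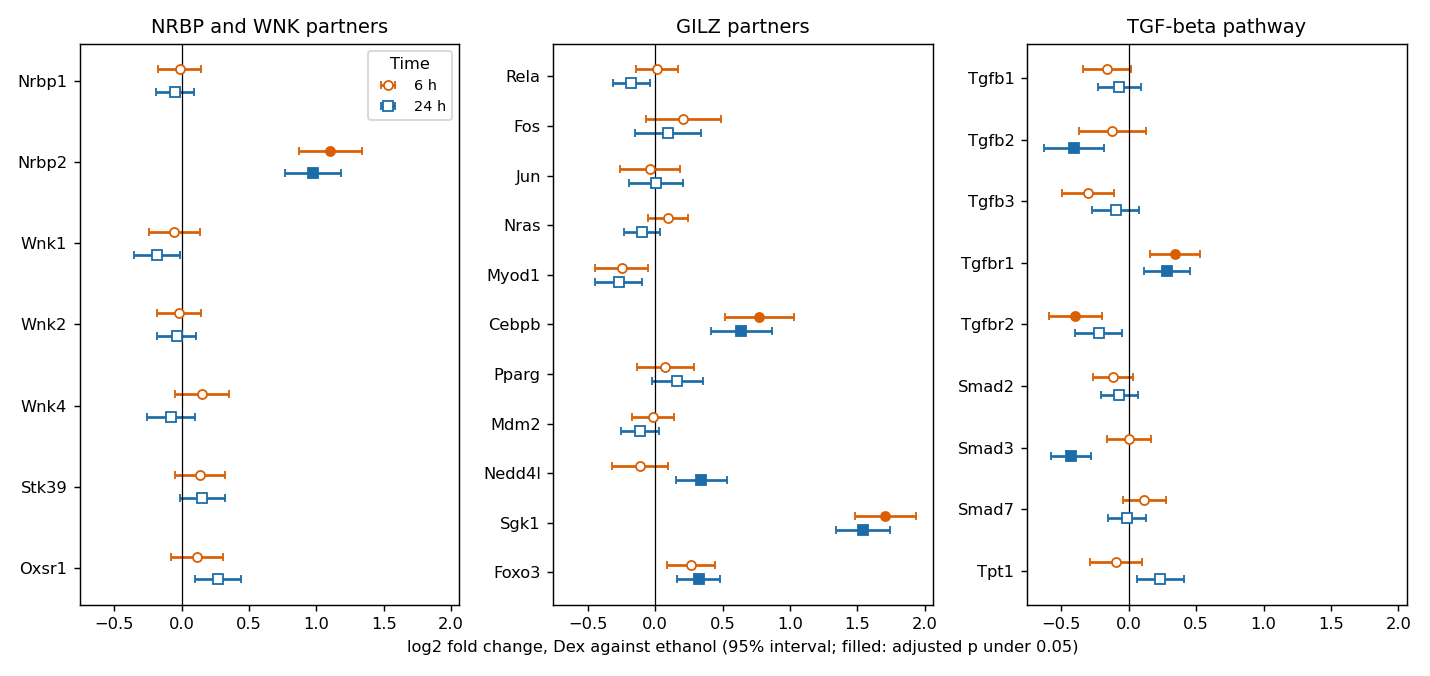
Log2 fold change of Dex against ethanol (horizontal axis) with its 95% interval at 6 h (circles) and 24 h (squares) for the measured genes of 3 lists, each by its brightest probe, filled where the adjusted p was under 0.05. In the NRBP and WNK list Nrbp2 is the filled gene, at 1.10 and 0.98, and Smad3 and Tgfb2 stand below 0 at 24 h.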

How the data were processed

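The values are linear probe intensities that the authors pre-processed with lumi, per the submitters' processing notes. The sources used here do not give its version, background correction or normalization. Log2 of the deposited intensity was taken with a pseudocount of 0, and all 45281 probes were kept. Of these, 34885 had 1 gene symbol in the platform annotation, 18 several and 10378 none. Of the probes with 1 symbol, 34807 were matched to a RefSeq (GRCm38.p6) gene, whose symbol was then used. Per probe, 4 group means were fitted with limma 3.58.1 in R 4.3.3. Within groups the arrays spread over fewer directions than their number allows. In 1 direction at 6 h and 3 at 24 h the 1126 probes with a mean log2 value above 12 held under 0.01% of their spread. These directions were added as covariates, which leaves 10 residual degrees of freedom in place of 14. Each gene on a list was read by its brightest probe. Every family probe is named; of each list, called members may be named, and the genes most like a called member were ranked by correlation. Further list members are named as examples, chosen after their values were seen. The members, lists, tests and alternatives were chosen with earlier results of these data known. Scanner files and detection p-values were not used here.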

Additional observations from a re-analysis of the deposited data

Results flagged for a closer look

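Among 36 sets of arrays (9 family probes in 4 groups), 2 held an array far from the others of its group by Dixon's criterion, which chance gives for about 1 set in 20. For Tsc22d2 probe ILMN_2426190 the Dex array with replicate number 4 at 6 h read 761.3, below the other 3, which read 888, 894.4 and 879.4. For Tsc22d4 probe ILMN_2749782 the Dex array with replicate number 3 at 6 h read 110.5, above the other 3, which read 92.9, 95.2 and 94. Neither probe was called at 6 h, with or without these arrays.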

How the results depend on the processing

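The rises of the 3 Tsc22d3 probes kept their direction and their call at both times in all alternatives that gave them a value, 29 for ILMN_3150811 and 27 for each of the others. Their log2 fold changes ranged from 1.63 to 1.84, 2.05 to 2.26 and 1.30 to 1.54 at 6 h, and from 1.26 to 1.53, 1.55 to 1.71 and 0.63 to 0.83 at 24 h (ILMN_3150811, ILMN_2701664, ILMN_2648224). The fall of Tsc22d1 at 24 h was called in 28 of 29, and of 741 values for family probes under the alternatives 726 kept their side of the threshold and none reversed a call. No family probe was called for a difference between the times in the fit reported, but 1 was (ILMN_2648224) without the missing directions as covariates, with normexp, without dim probes, with array weights, with an intensity trend and with the replicate block. Leaving out 1 array gave 0 to 2. Over all probes, the counts called at 6 h, at 24 h and between the times were 2836, 5726 and 1675 without the missing directions, against 1378, 2842 and 371 with them. Array weights gave 6173 at 24 h. One value per gene gave 850, 1694 and 232 of 19057 genes with the brightest probe and 641, 1452 and 115 with the mean of its probes, where fewer features were tested. Leaving out 1 array gave 1130 to 1684, 2334 to 3548 and 323 to 637. Apart from fewer features or arrays, the cause of these shifts was not tested. In the fit reported the replicate numbers were not used to pair the arrays. Deviations from the group means of same-numbered Dex and ethanol arrays correlated from -0.109 to 0.170 for the 6 h arrays. For those of 24 h the correlations ran from -0.914 to -0.181. Same-numbered arrays of 24 h thus deviated in opposite directions and are not shown to be independent, though the fit treats them so. The cause was not tested. With replicate number as a block 904 probes differed between the times. Without both 24 h arrays numbered 1, Tsc22d1 had -0.38 (limma adjusted p = 0.0123). The number of arrays limits the precision, and probes near the array median are not shown to be above background.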
